A study of Mus musculus with 36 samples.

Results

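Dietary fructose enters cells through facilitative sugar transporters of the GLUT family. Inside a hepatocyte ketohexokinase phosphorylates it, the product is split, and triokinase phosphorylates the glyceraldehyde that this releases. The liver also makes fructose itself by the polyol route, in which sorbitol dehydrogenase oxidizes sorbitol to fructose. The genes described here are 6 of this system. Slc2a5 encodes GLUT5, the dedicated fructose transporter, which is best known from intestine and kidney. Slc2a2 encodes GLUT2, the main hexose transporter of hepatocytes, and Slc2a9 encodes GLUT9, which carries urate. Khk encodes ketohexokinase, Tkfc triokinase and Sord sorbitol dehydrogenase.

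These 6 genes were picked by name, with earlier results of the same data known, out of 53715 gene identifiers in the deposited count table, and all 6 were among the 14068 genes that passed the low-count filter. The diet differences of the 6 genes are therefore given as a description with no p-values, and the genes whose p-values are given lie outside the 6 or concern relations within a diet.

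The livers came from 36 male C57BL/6 mice aged 10 weeks, which had been put on their diets at 4 weeks of age and kept on them for 6 weeks. All mice ate the purified AIN93G diet. The control group received it alone, the red group with 10% red tomato powder and the tangerine group with 10% tangerine tomato powder, with 12 libraries per group and 1 mouse number per library. The labels put 11 to 12 mice in each group, so the 12 libraries of each diet are counted as 12 mice from their numbers alone. Total counts ranged from 21290169 to 33810573 per library, with medians of 25524100 on control, 26856681 on red and 27076300 on tangerine. The labels call the tissue liver, and all 6 of 6 hepatocyte markers (Alb, Apoa1, Ttr, Serpina1a, Tat and Hnf4a) were tested, with a summed level of 81160 to 121995 CPM (read counts scaled to library size). Of 6 kidney markers, 1 was tested, and their summed level was 21.6 CPM in tangerine 198 and 8.39 CPM in tangerine 217 against at most 2.47 CPM in the other 34 libraries. T cell markers summed to 168 CPM in red 186 against at most 4.43 CPM in the other 35. Pancreas markers summed to 12.7 CPM in tangerine 216 against at most 0.396 CPM elsewhere.

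Slc2a5 (ENSMUSG00000028976.10, chromosome 4, 150119283 to 150144169, plus strand, GRCm38) was the gene of the 6 with the widest spacing of the diets. On control its level ran from 4.54 to 11.4 CPM with a median of 8.03 CPM. On red the lowest, median and highest libraries had 4.92, 6.39 and 8.20 CPM, and on tangerine they had 7.91, 9.21 and 15.7 CPM. Both tomato groups overlapped control, and red and tangerine overlapped each other only at their edges, since 10 of 12 tangerine libraries exceeded every red library. The means were 10.9 ± 2.78 CPM on tangerine, 8.17 ± 1.79 CPM on control and 6.34 ± 1.06 CPM on red (SD, n = 12 each). These levels rest on 128 to 429 counts per library.

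As edgeR fold changes on the log2 scale, the difference of Slc2a5 was 0.78 (SE 0.125) for tangerine against red, a ratio of 1.72. Against control it was -0.37 (SE 0.125) on red and 0.41 (SE 0.124) on tangerine, and both values share the 12 control livers. With an adjusted p under 0.05 as the threshold (edgeR's quasi-likelihood test), 1 of the 6 genes passed in tangerine against red, where 1.71% of all tested genes passed. That gene was Slc2a5, and nothing is read from its call because it was chosen with this comparison in view. None of the 6 genes passed in red against control, where 0.149% of all tested genes did. There 2 of the 6 had an unadjusted p under 0.05, as did 13.3% of all tested genes. None passed in tangerine against control either, where the share of all genes was 0.0142% and 1 of the 6 had an unadjusted p under 0.05, as did 5.47% of all genes. In DESeq2 and limma-voom the numbers of the 6 that passed were the same in each comparison.

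**Figure D1:**
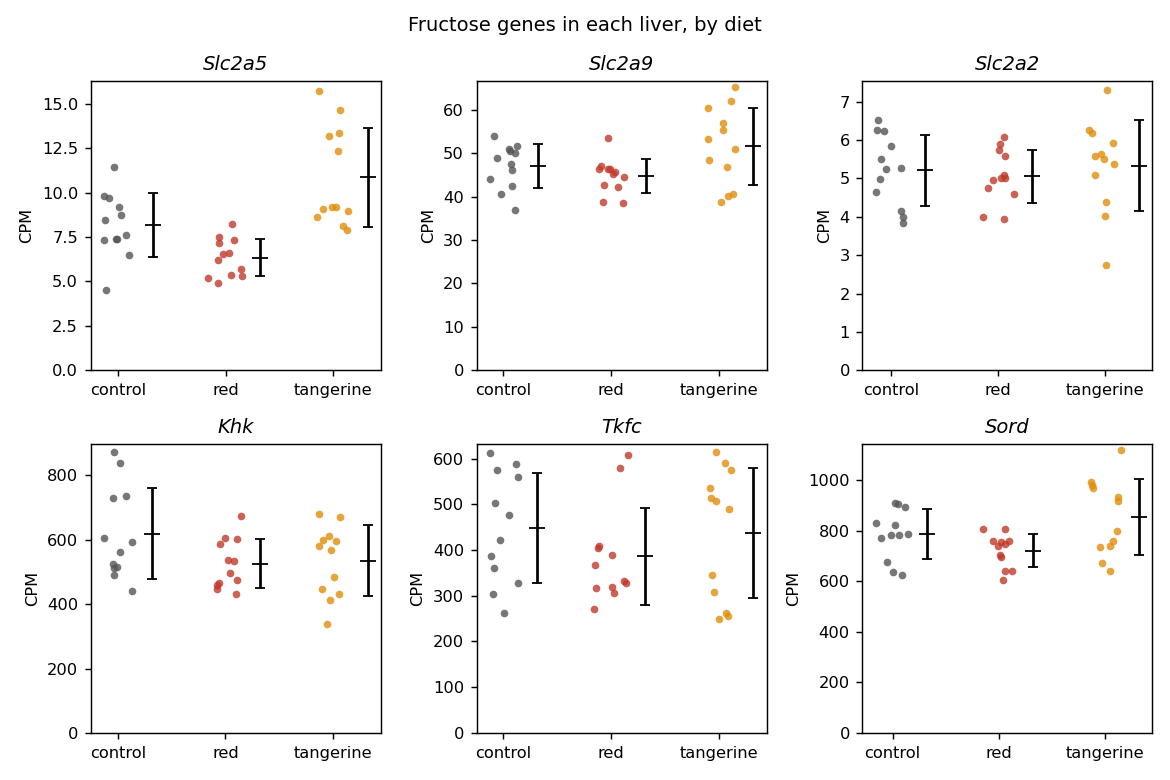
Level of each of the 6 genes in CPM (vertical axis, from 0) in the 36 livers by diet; each point is 1 library and the black bar is the mean ± SD of 12. For Slc2a5 the 12 red livers lie between 4.92 and 8.20 CPM and 10 of 12 tangerine livers lie above all of them, whereas the diets overlap widely for Slc2a2.

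The tangerine livers were not evenly spread. Mice 128, 160, 192, 195, 197, 225 and 226 had 7.91 to 9.21 CPM of Slc2a5, and mice 198, 215, 216, 217 and 242 had 12.3 to 15.7 CPM. Of these 5, mice 215, 216, 217 and 242 had the 4 highest values of the clock difference described further on among the tangerine livers, and mouse 198 did not. The upper range also includes both livers with raised kidney markers, and Slc2a5 had 14.6 CPM in tangerine 198 and 13.3 CPM in tangerine 217. Kap, an abundant transcript of the kidney tubule, had 439 counts in tangerine 198 and 212 in tangerine 217, against at most 42 in the other libraries and at most 18 in a control. Umod, Slc12a1 and Slc22a6 were also highest in these livers, at 5 to 14 counts, whereas Slc12a3 and Nphs1 were not, and the part of kidney transcripts in the level of Slc2a5 was not tested. Without these 2 livers the log2 fold change of tangerine against red was 0.69 (SE 0.126). Without them and without red 186 and tangerine 216 it was 0.58 (SE 0.121), and Slc2a5 no longer passed. In bulk tissue, more cells of a type that holds a transcript and more of that transcript per cell cannot be told apart.

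The DNA just upstream of Slc2a5 is shown because the gene's level followed the clock genes described further on. The run below covers chr4:150119094-150119282 (GRCm38.p6, plus strand, RefSeq promoter table), which ends before the annotated start of the gene in both RefSeq and GENCODE M21. Capitals mark the GC box letters GGGCGG on either strand.

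Slc2a5: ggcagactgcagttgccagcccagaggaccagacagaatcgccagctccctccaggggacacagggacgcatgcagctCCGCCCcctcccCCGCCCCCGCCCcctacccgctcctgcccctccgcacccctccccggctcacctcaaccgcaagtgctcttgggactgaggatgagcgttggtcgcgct

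This stretch of 189 bases is 69.8% G and C and holds the GC box 3 times. GGGCGG occurs at least 1 time in 35.7% of the 32851 promoter windows of 300 bases in the same table, and how many hold it 3 times was not counted. The full windows of Sord and Khk held it 2 times and 1 time. The full window of Slc2a5 held no match to CACGTG (an E-box, in 7.15% of all windows) or to TTATGTAA (a D-box, the element bound by Dbp, in 0.938% of all windows), read on both strands.

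Slc2a9 (ENSMUSG00000005107.13, chromosome 5, 38349273 to 38503143, minus strand) had 928 to 1968 counts per library. Its lowest, median and highest levels were 37.0, 48.2 and 54.0 CPM on control, 38.5, 45.5 and 53.4 CPM on red and 38.9, 52.2 and 65.3 CPM on tangerine. The groups overlapped throughout, and 5 of 12 tangerine livers exceeded every control and every red liver. The log2 fold change of tangerine against red was 0.21 (SE 0.0755). Against control it was -0.07 (SE 0.0756) on red and 0.14 (SE 0.0755) on tangerine.

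Slc2a2 (ENSMUSG00000027690.13, chromosome 3, 28697903 to 28731359, plus strand) had only 64 to 195 counts per library. Its mean in CPM was 5.34 ± 1.19 in tangerine, 5.21 ± 0.917 in control and 5.05 ± 0.684 in red livers (SD, n = 12 each), and the log2 fold change of tangerine against red was 0.08 (SE 0.110). In GENCODE M21, 85.8% of the gene's span lies inside 1700112D23Rik, an antisense gene on the other strand (28702667 to 28781108) that had a mean of 72.6 counts. Of the 5755 exonic bases of Slc2a2, 129 lie outside that gene's span, although the exons of the 2 genes share no base.

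Across the table, being inside another gene went with a count of 0. Of 1300 protein-coding genes whose whole span lies inside other genes, 97.9% had 0 counts in all 36 libraries. Among 668 of these with no exonic base in common with the exons of the other genes, 99.4% had 0 counts. The share was 22.8% among 11931 protein-coding genes with no other gene in their span and 4.69% among 8659 that overlap in part. All 7 of the 86 pathway genes considered here whose whole span lies inside another gene (Akr1b3, Glyctk, Txnip, Urah, Slc22a12, Per3 and Ciart) were listed at 0 in every library, and no other gene of those lists was. The floor of 3 counts corresponds to 0.0887 to 0.141 CPM per library and covers counting error only. The deposited level of Slc2a2 is therefore compared between diets only, and not with the levels of other genes.

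Per kilobase of annotated exon, Slc2a5 had 2.49 ± 0.796 CPM over all 36 livers, and Slc2a9 had 9.40 ± 1.34 CPM. The enzymes were far above Slc2a5 and Slc2a9 on this scale. Sord had 335 ± 51.1, Khk 312 ± 65.1 and Tkfc 91.8 ± 26.7 CPM per kilobase. Sord and Khk did not differ beyond their spread. For Tkfc, Ddb1 and Cyb561a3 cover 47.6% of the span. Dividing its whole level by only the exonic bases outside these genes gave a mean of 313 CPM per kilobase. That value assumes that no read was counted in the overlapped bases, which was not tested. For Slc2a2, which is not compared with the other genes, the level was 0.904 CPM per kilobase of all exons. On the same untested assumption it was 40.3 CPM per kilobase of the 129 exonic bases outside the antisense gene.

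Khk (ENSMUSG00000029162.15, chromosome 5, 30921431 to 30931248, plus strand) had a mean in CPM of 619 ± 141 in control, 526 ± 77.0 in red and 535 ± 109 in tangerine livers (SD, n = 12 each). The lowest livers were at 442, 431 and 339 CPM and the highest at 872, 674 and 680 CPM in the same order, so no tomato liver exceeded the highest control. The medians were 578, 516 and 575 CPM in this order, and 4 of 12 red and 6 of 12 tangerine livers exceeded the control median. The log2 fold change against control was -0.23 (SE 0.111) on red and -0.21 (SE 0.111) on tangerine. Tangerine and red differed by 0.02 (SE 0.111), with a 95% interval from -0.19 to 0.24.

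Tkfc (ENSMUSG00000034371.8, chromosome 19, 10587791 to 10605654, minus strand in M21) spread more between mice of 1 diet than between diets. It ran from 263 to 611 CPM on control with a median of 450, from 271 to 607 CPM on red with a median of 349, and from 248.7 to 614 CPM on tangerine with a median of 498. On tangerine 5 livers had 248.7 to 346 CPM and 7 had 489 to 614 CPM, with none between. The 5 low livers were mice 215, 216, 217, 225 and 226, a run of neighbouring mouse numbers, and the labels do not say what the numbers stand for. The same 5 mice had the 5 lowest tangerine levels of Khk, at 339 to 486 CPM against 569 to 679.5 CPM in the other 7, and the 5 highest of Slc2a9, at 55.3 to 65.3 CPM against at most 53.3 CPM. For Sord they had 916 to 1119 CPM and were 5 of the 6 tangerine livers above every control. On the log2 scale red differed from control by -0.22, tangerine from control by -0.04 and tangerine from red by 0.18 (SE 0.167 for each).

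Sord (ENSMUSG00000027227.7, chromosome 2, 122234749 to 122265340, plus strand) had a lowest, median and highest level of 623, 787 and 911 CPM on control and of 606, 744 and 806 CPM on red. On tangerine these were 640, 857 and 1119 CPM, and 6 of 12 tangerine livers exceeded every control. On the log2 scale tangerine differed from red by 0.24 (SE 0.0799). Red differed from control by -0.12 and tangerine from control by 0.12 (SE 0.0798 for each).

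**Figure D2:**
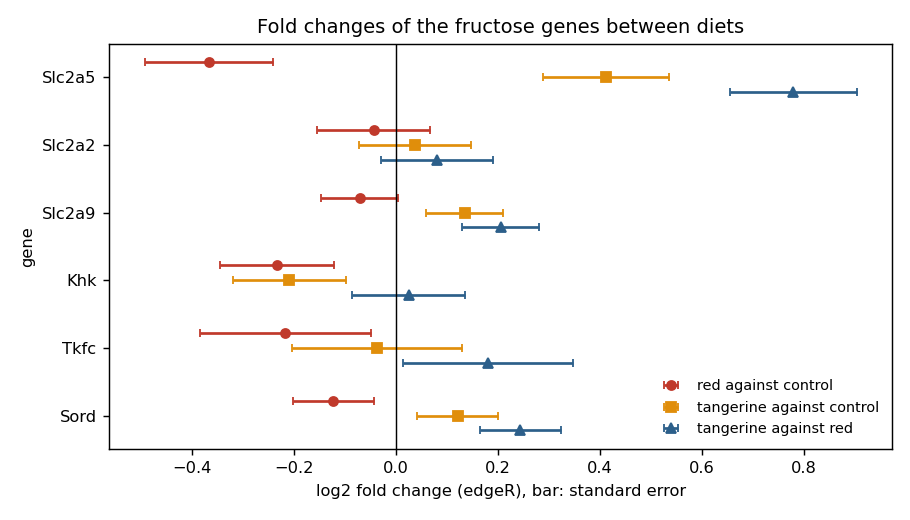
Log2 fold change (horizontal axis, edgeR) of the 6 genes in the 3 diet comparisons; bars are the standard error. Slc2a5 has the largest values, 0.78 for tangerine against red and -0.37 and 0.41 for red and tangerine against control. For Khk the fold changes of both tomato diets lie below 0 by about the same amount, although the tangerine median (575 CPM) was near that of control (578 CPM).

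Counted together, the median of the 6 log2 differences between red and control was -0.17, with 6 of 6 below 0, where all tested genes had a median of -0.00 and 51.5% were below 0. For tangerine against control the median was 0.08 with 4 of 6 above 0, and for tangerine against red it was 0.19 with 6 of 6 above 0. The medians of all genes in these comparisons were -0.01 and -0.00, and 55.4% and 51.5% of all genes were below 0. The comparisons of red with control and of tangerine with red share the 12 red livers. The signs differ between genes in the comparison of tangerine with control, where Khk and Tkfc were below 0 and the 3 transporters and Sord above.

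Whether the 6 genes varied together from mouse to mouse was examined within diets. Each diet's mean was subtracted from the log2 CPM, so that the differences between diets play no part, and the 15 pairs were tested together with 6 relations to the clock genes, 21 relations in all. Khk and Tkfc, which act on fructose and on the glyceraldehyde made from it, had the strongest relation. Pearson's r was 0.84 and Spearman's rho 0.84 over 36 livers (two-sided permutation p 1e-05 for each, the smallest the permutations can give, and adjusted p 0.000105 and 0.00021). It was 0.76 on control, 0.80 on red and 0.94 on tangerine, and 0.85 without the 2 livers farthest from the median of Khk.

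Sord and Slc2a9 varied together and against Tkfc. For Slc2a9 and Sord r was 0.69 and rho 0.64 (permutation p 4e-05 and 0.00029, adjusted 0.00021 and 0.00152), and r was 0.60 without the 2 farthest livers. For Slc2a9 and Tkfc r was -0.69 and rho -0.70 (permutation p 2e-05 and 3e-05, adjusted 0.00014 and 0.00028), with -0.67 without the 2 farthest. Within diets this r was -0.44 on control, -0.71 on red and -0.82 on tangerine. For Tkfc and Sord r was -0.55 and rho -0.51 (permutation p 0.00177 and 0.00369, adjusted 0.00619 and 0.0129), with -0.54 without the 2 farthest. In the control livers r was 0.06, against -0.77 on red and -0.84 on tangerine, and the difference between diets was not tested. Slc2a9 and Khk had r of -0.46 and rho of -0.47 (permutation p 0.0100 and 0.00824, adjusted 0.0233 and 0.0247), with -0.44 without the 2 farthest. Without red 186 and tangerine 198, 216 and 217 the relations of Tkfc with Sord (r -0.50, adjusted permutation p 0.0560) and of Slc2a9 with Khk (r -0.40, adjusted permutation p 0.104) no longer passed.

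Part of these relations rests on the tangerine mice 215, 216, 217, 225 and 226. Without these 5 livers r was 0.77 for Khk and Tkfc, 0.59 for Slc2a9 and Sord and -0.52 for Slc2a9 and Tkfc, and these passed (adjusted permutation p 0.00042, 0.0064 and 0.00857). It was -0.27 for Tkfc and Sord and -0.18 for Slc2a9 and Khk, and these did not pass (adjusted permutation p 0.318 and 0.678).

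Slc2a5 had no relation past the threshold with the enzymes of fructose breakdown. Its r was 0.04 with Khk and -0.12 with Tkfc (permutation p 0.823 and 0.518, adjusted 0.823 and 0.657). With Slc2a9 it was 0.48 (rho 0.37, permutation p 0.00791 and 0.0444, adjusted 0.0208 and 0.0932), which fell to 0.35 without the 2 livers farthest from the median of Slc2a5 and so rests partly on them. Without red 186 and tangerine 216 it was 0.41 (adjusted permutation p 0.0638), and without the 5 tangerine mice 0.40 (adjusted permutation p 0.119). With Sord it was 0.40 (rho 0.43, permutation p 0.0267 and 0.0176, adjusted 0.056 and 0.0463). Slc2a2 had no relation past the threshold with the other 5 genes, with r from -0.16 to 0.22 (smallest permutation p 0.288, adjusted 0.433).

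**Figure D3:**
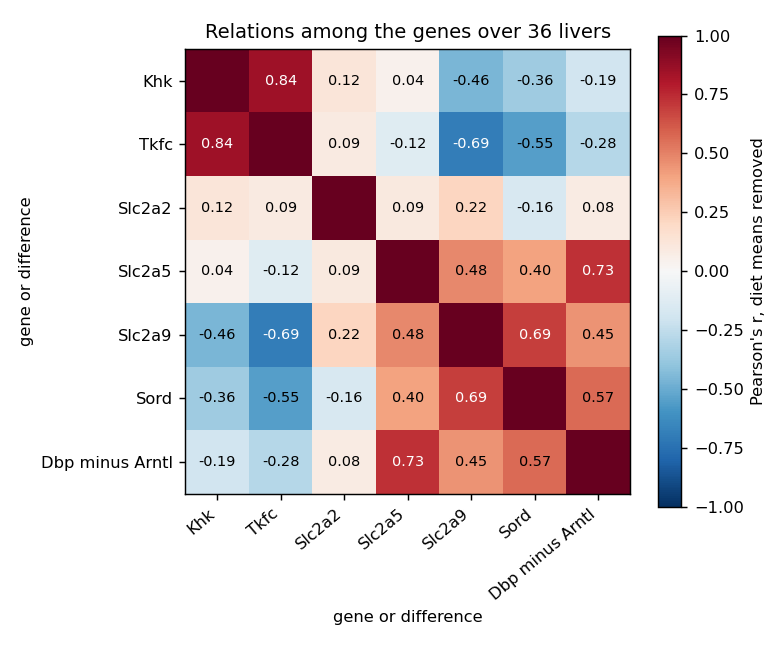
Pearson's r between the 6 genes and the Dbp minus Arntl difference over 36 livers after subtracting diet means, coloured from -1 (blue) to 1 (red). Khk and Tkfc go together (0.84), Slc2a9 and Sord go together (0.69) and against Tkfc, and Slc2a5 goes with the clock difference (0.73).

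Each gene was also set against the difference of Dbp and Arntl in log2 CPM. Dbp and Arntl peak at opposite times of day, and the labels give no time of collection. Of 15 clock genes 13 were tested, and 7 passed between tangerine and red, where 1.71% of all tested genes passed. Nr1d2, Dbp and Tef were higher on tangerine than on red, by 0.75, 1.84 and 1.08 on the log2 scale. Arntl, Npas2, Clock and Cry1 were lower on tangerine than on red (edgeR adjusted p 0.0173 to 0.0497 for the 7). These calls were not stable: with edgeR 0 of the 13 passed with mouse number as covariate, without tangerine 198 and 217, without red 186 and tangerine 216 or without all 4 libraries, and 2 passed without the low-count filter. In the same comparison DESeq2 called 5 of the 13 higher and 4 lower, and limma-voom 4 higher and 5 lower. Of all 14068 genes they called 420 and 746. Fits with edgeR called 4 higher and 4 lower on the compared diets alone, and 3 higher and 2 lower with DESeq2 size factors. In both comparisons with control 0 of the 13 passed in edgeR. There 11 (red) and 0 (tangerine) had an unadjusted p under 0.05, as did 13.3% and 5.47% of all tested genes. On red against control DESeq2 called 1 of the 13 lower and limma-voom 4 higher and 6 lower, where they called 172 and 1504 of all genes. The difference averaged 2.94 ± 2.70 on control, -0.02 ± 2.07 on red and 3.84 ± 1.98 on tangerine (SD, n = 12 each). Within diets Slc2a5 followed it with r of 0.73 and rho of 0.67 (permutation p 1e-05, the smallest possible, and 4e-05, adjusted 0.000105 and 0.00028). The relation was present in each diet, at 0.69 on control, 0.73 on red and 0.82 on tangerine, and r was 0.68 without the 2 farthest livers. Without red 186 and tangerine 198, 216 and 217 it was 0.73.

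Sord followed the same difference with r of 0.57 and rho of 0.58 (permutation p 0.00041 and 0.00045, adjusted 0.00172 and 0.00189), and Slc2a9 with r of 0.45 and rho of 0.34 (permutation p 0.00522 and 0.0441, adjusted 0.0157 and 0.0932). Without the 2 farthest livers these r were 0.57 and 0.40. Without red 186 and tangerine 198, 216 and 217 that of Slc2a9 was 0.34 (adjusted permutation p 0.104). Without the 5 tangerine mice r was 0.68 for Slc2a5 and 0.58 for Sord (adjusted permutation p 0.00115 and 0.00532), and 0.29 for Slc2a9 (adjusted permutation p 0.275). The r of Slc2a9 was -0.16 on red, where that of Sord was 0.32. Khk (-0.19), Tkfc (-0.28) and Slc2a2 (0.08) had adjusted permutation p from 0.176 to 0.683. With the Dbp minus Arntl difference as covariate, the log2 fold change of Slc2a5 in tangerine against red was 0.36 (SE 0.112) and Slc2a5 no longer passed. In that edgeR fit 0 of all tested genes passed in tangerine against red, and 1619 had an unadjusted p under 0.05.

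**Figure D4:**
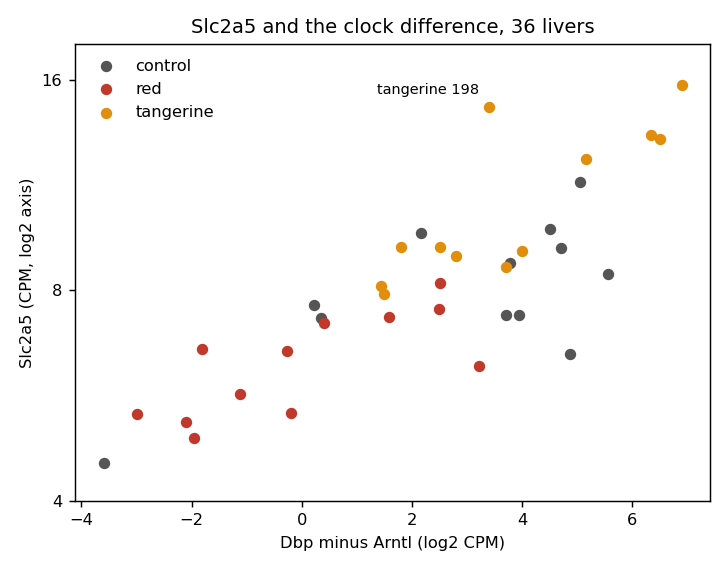
Slc2a5 in CPM (vertical log2 axis) against the Dbp minus Arntl difference in log2 CPM (horizontal axis) in 36 livers, coloured by diet. Slc2a5 is higher where the difference is higher in each diet, and tangerine 198, one of the livers with raised kidney markers, lies above the other tangerine livers at a similar difference.

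Among 11035 tested genes whose log2 CPM averaged 1 or more, those most like Slc2a5 over the 36 livers after subtracting diet means were Slc38a3 (r 0.78), a glutamine transporter, Gys2 (0.76), the liver glycogen synthase, Inmt (0.74), Npc1 (0.73) and Dbp (0.73). Among those running most against it were Ddc (-0.71) and Chka (-0.68), a choline kinase. These correlations share libraries and clock state and are given as a description. Of these 7 genes, Slc38a3, Gys2, Inmt and Dbp passed as higher on tangerine than on red and Chka as lower (edgeR adjusted p 0.0146 to 0.0476), whereas Npc1 (0.0641) and Ddc (0.0961) did not pass. Of all tested genes 1.71% passed in this comparison. The 7 were picked in the same livers by their relation to Slc2a5, itself chosen with this comparison in view, so nothing is read from their calls.

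Of 9 further GLUT genes 5 were tested, and 0 passed in any comparison in edgeR, with 1, 1 and 2 of them at an unadjusted p under 0.05 (red with control, tangerine with control, tangerine with red). In the same order 13.3%, 5.47% and 15.1% of all tested genes had an unadjusted p under 0.05. DESeq2 and limma-voom each called 1 of the 5 GLUT genes higher on tangerine than on red, where they called 420 and 746 of all 14068 genes. Slc2a4 encodes GLUT4, the insulin-responsive transporter of muscle and fat. Its mean in CPM was 3.76 ± 2.25 in red livers, 8.26 ± 4.81 in control and 8.23 ± 4.06 in tangerine livers (SD, n = 12 each). Red differed from control by -1.13 on the log2 scale (SE 0.342, edgeR adjusted p 0.128) and tangerine from red by 1.12 (SE 0.342, edgeR adjusted p 0.0821). Slc2a7, a transporter of the same subfamily as Slc2a5, had 4 counts in all libraries together.

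Of 7 other enzymes of fructose, polyol and glyceraldehyde metabolism 5 were tested and 0 passed in edgeR, DESeq2 or limma-voom, with at most 1 of them at an unadjusted p under 0.05 in a comparison. Of 17 genes of hexose phosphorylation and glycolysis 16 were tested and 0 passed in any comparison in edgeR. At an unadjusted p under 0.05 were 4, 1 and 1 (red with control, tangerine with control, tangerine with red), as were 13.3%, 5.47% and 15.1% of all tested genes. Limma-voom called 2 of the 16 lower on red than on control, where it called 1504 of all 14068 tested genes in either direction. Pfkfb1, which sets the level of a glycolytic activator, had a log2 difference of -0.36 between red and control (SE 0.132, edgeR adjusted p 0.218).

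Genes of the carbohydrate response, which the sugar-sensing factor ChREBP (Mlxipl) is known to drive, gave 1 edgeR call among 21 tested of 22. Thrsp, a regulator of lipid synthesis, averaged 594 ± 242 CPM on red and 1227 ± 544 CPM on tangerine and rose by a log2 fold change of 1.05 on tangerine against red (SE 0.261, edgeR adjusted p 0.0287). In tangerine against red Thrsp did not pass with the clock difference (adjusted p 0.307) or mouse number (0.0551) as covariate, or without the low-count filter (0.0622). Nor did it pass without tangerine 198 and 217 (0.0672), without red 186 and tangerine 216 (0.0703) or without all 4 libraries (0.146). Red against control had 17 of 21 below 0 with a median of -0.38, and in edgeR 0 passed while 10 had an unadjusted p under 0.05, which 13.3% of all tested genes had. DESeq2 called 1 of the 21 lower there and limma-voom 3, where they called 172 and 1504 of all 14068 genes in either direction. On tangerine against red DESeq2 called 2 of the 21 higher, limma-voom 3 higher and 1 lower, and edgeR on the compared diets alone 2 higher. Of all genes DESeq2 called 420 and limma-voom 746 there. The median difference between tangerine and control was -0.14, and that between tangerine and red 0.28.

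Within diets the enzymes of fructose breakdown moved with these genes. All 21 had a positive r with Khk, with a median of 0.61, and all 21 had one with Tkfc, with a median of 0.65, where the medians over all tested genes were 0.00 and -0.01. The strongest were Pklr, liver pyruvate kinase, with Tkfc (0.93) and Acaca, which makes malonyl-CoA, with Khk (0.86). Fasn, the fatty acid synthase, had 0.88 with Tkfc and 0.79 with Khk. For Slc2a9 the median r over the same 21 genes was -0.44 and for Sord -0.43, and for Slc2a5 it was 0.01. Without the 5 tangerine mice the medians were 0.48 for Khk, 0.58 for Tkfc, -0.22 for Slc2a9 and -0.19 for Sord. A window of 30 bases around the single CACGTG in the promoter of Khk is shown because E-boxes are the letters ChREBP binds in pairs. Only 1 exact CACGTG was found there and not a pair, 7.15% of all promoter windows hold one, and binding was not tested. The window of 30 bases lies at chr5:30921476-30921505 (GRCm38.p6, plus strand, RefSeq promoter table), the motif in capitals starting 71 bases before the RefSeq start. GENCODE M21 places the start of Khk further upstream, so that in that annotation the window lies inside the gene.

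Khk: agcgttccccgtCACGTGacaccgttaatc

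The windows of the other 5 genes held no CACGTG.

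Urate is the main cargo of GLUT9, and fructose breakdown is known to feed urate formation. Of 11 genes of urate formation, breakdown and transport 8 were tested, and in edgeR Uox, the urate oxidase that rodents retain, was the only one of them to pass. Limma-voom called 2 of the 8 higher on tangerine than on red, where it called 746 of all 14068 genes. Uox fell on red from 1784 ± 156 to 1391 ± 120 CPM (SD, n = 12 each), and all 12 red livers lay below every control liver. The log2 fold change was -0.36 on red against control (SE 0.0685, edgeR adjusted p 0.0156) and 0.35 on tangerine against red (SE 0.0685, adjusted p 0.00785). Tangerine averaged 1778 ± 258 CPM, and 11 of 12 tangerine livers lay above every red liver. In GENCODE M21 55.9% of the span of Uox lies inside Dnase2b, which had 0 counts. Of the 5007 exonic bases of Uox, 2306 lie outside that gene's span, and a loss of counts in the others was not tested. With the clock difference as covariate Uox passed in neither comparison (adjusted p 0.202 and 0.240). Without red 186 and tangerine 198, 216 and 217 the adjusted p of the red and control difference was 0.0107, and that of the tangerine and red difference 0.116. Xdh, which forms urate, had a log2 fold change of 0.14 on tangerine against red (SE 0.0777, edgeR adjusted p 0.393). The medians of the 8 genes were -0.08 (red and control), 0.03 (tangerine and control) and 0.04 (tangerine and red).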

How the data were processed

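Total RNA from 36 mouse livers was sequenced with a directional kit, per the labels. The authors deposited whole-number read counts per gene; FastQC, Trimmomatic, edgeR and GRCm38.p6 are named per the submitters' processing notes, and the aligner, counter and strand setting are not given in the sources used here. Symbols came from GENCODE M21 for 53620 of 53715 identifiers. Each title carries its own mouse number, taken as 1 mouse per library. The 6 genes and all lists were chosen with earlier results of these data known. CPM (TMM-scaled, prior count 2 on the log2 scale) was computed here. Diets were compared with edgeR 4.0.16 (R 4.3.3, robust quasi-likelihood, filterByExpr with a minimum count of 10, all 36 libraries, Benjamini-Hochberg over 14068 genes). Alternatives were DESeq2 1.42.0 and its size factors, limma 3.58.1 voom with sample weights, no filter, the Dbp minus Arntl difference or mouse number as covariate, fits on the compared diets alone, and libraries left out; those that leave out tangerine 198 and 217, or tangerine 215, 216, 217, 225 and 226 (relations only), were chosen after seeing the data. Relations used 100000 permutations within diets (scipy 1.17.1, numpy 2.4.6), adjusted over 21. Named genes are the 6, list genes that passed or had the 2 smallest p in a comparison, and the 5 highest and 3 lowest correlations with Slc2a5; others named for their correlation with Khk or Tkfc, or because they overlap a gene, were chosen after their values were seen. Some genes that this rule names are not reported here. Promoters are RefSeq windows of GRCm38.p6.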

Additional observations from a re-analysis of the deposited data

How the results depend on the processing

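No paired analysis was possible because no mouse number occurs in more than 1 diet. Of 180 recomputed fold changes of the 6 genes, 174 kept their direction and side of the threshold. Those that changed sign were red against control for Slc2a9 (0.0443) and Sord (0.0254) with the Dbp minus Arntl covariate, and tangerine against control for Tkfc with limma-voom (0.0844) and without red 186 and tangerine 198, 216 and 217 (0.0154). The 1 of the 6 that passed in tangerine against red became 0 with that covariate and 0 without those 4 libraries (edgeR, 1619 and 1488 of all genes at an unadjusted p under 0.05). Of 105 recomputed relations 93 kept direction and call, and the number past the threshold went from 9 to 5 without the 4 libraries and to 5 without tangerine 215, 216, 217, 225 and 226. Without these 5, r changed sign for Slc2a2 with Slc2a5 (-0.0234), Tkfc (-0.0711) and Sord (0.049), none of which passed in either form. Genes called in red against control went from 21 to 172 with DESeq2, 1504 with limma-voom, 4 with the covariate, 53 without red 186 and tangerine 216 and 45 without the 4. In tangerine against control they went from 2 to 7 with DESeq2, and to 1 with mouse number as covariate, 1 without tangerine 198 and 217 and 1 without the 4. In tangerine against red they went from 241 to 136 without the filter, 420 with DESeq2, 746 with limma-voom, 0 with the Dbp minus Arntl covariate (edgeR, 1619 unadjusted), 32 with mouse number, 86 without red 186 and tangerine 216, 20 without tangerine 198 and 217 and 4 without the 4. The cause of these changes was not tested. Slc2a2 had the fewest counts of the 6 genes, 64 to 195 per library, which limits its precision most.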
